A study of Mus musculus with 6 samples.

Results

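A set of 10 genes of the small RNA machinery, namely the Argonaute genes Ago1, Ago2 and Ago3, the TNRC6 scaffold genes Tnrc6a, Tnrc6b and Tnrc6c, the processing genes Drosha, Dgcr8 and Dicer1, and the export gene Xpo5, were followed in mouse vascular smooth muscle cells after depletion of Sirt7. The genes were taken by symbol from a list drawn up for their shared role in microRNA function. Earlier results of these data were known when it was chosen. All 10 were present, among 11808 genes, and 17 of the 23242 transcripts belonged to them. The mean of each of the 10 reached 1 FPKM (fragments per kilobase of transcript, scaled to sequencing depth), so each was among the 10854 genes tested.

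MicroRNAs are short RNAs cut from hairpin transcripts, in the nucleus by the microprocessor of Drosha and Dgcr8 and, after export by Xpo5, in the cytoplasm by Dicer1. One strand is loaded into an Argonaute protein, which pairs with target mRNAs, mostly through the bases near the microRNA's 5′ end. A TNRC6 protein bound to the Argonaute then recruits deadenylases and decapping factors, and the target is silenced and degraded. In smooth muscle of mice, loss of Dicer1 is known to impair vessel development and contractile differentiation.

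The siSirt7 group held 3 libraries from cells transfected with 20 nM of siRNA against Sirt7, with the genotype given as Sirt7 knockdown. The siScrambled group held 3 libraries from cells transfected with 20 nM of a scrambled siRNA, with the genotype given as WT. Both groups were primary vascular smooth muscle cells obtained by collagenase digestion from male C57BL/6 mice, labelled 12*6-week-old, which was read as 12 mice aged 6 weeks. Both were kept in growth medium with serum, transfected with Lipofectamine RNAiMAX and profiled by mRNA sequencing at 48 h. The design text speaks of different cells for each library, but does not say whether these were separate isolations, so p-values measure only how these libraries spread, and that spread may be technical. Control cells were transfected too, and no untransfected group was analysed here. In such bulk samples fewer cells of a type and less RNA per cell cannot be told apart.

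Levels below are deposited FPKM, added up over a gene's listed transcripts, and means stand with their SD over the n = 3 libraries of each group. A log2 fold change is the siSirt7 mean minus the siScrambled mean of log2(FPKM + 1), a scale that understates the change of low genes. A gene was called higher or lower at a limma adjusted p under 0.05, with Benjamini-Hochberg adjustment over all 10854 genes. Sirt7 itself was at 0.959, 1.25 and 0.360 FPKM in the siSirt7 libraries, against 4.35, 3.55 and 4.48 FPKM in the siScrambled libraries (log2 fold change -1.49, adjusted p = 0.00388). It was -2.27 with a pseudocount of 0.1, and Sirt7 was not called on its most abundant transcript alone (-1.30, adjusted p = 0.0697). FPKM summed to between 321944 and 333683 per library, and depth is unknown. Of 7 smooth muscle markers 6 were measured, and they summed to between 2294 and 2498 FPKM in siSirt7 libraries and between 2648 and 2672 FPKM in siScrambled libraries, with 3 lower (Cnn1, Smtn and Tagln) and 0 higher. Among endothelial markers only Erg, of 7 listed, was measured (3.29 and 3.96 FPKM), and 0 of 7 lymphocyte markers were. Macrophage markers, 4 of 7 measured and Ptprc and Adgre1 not among them, summed to 20.7 to 23.6 FPKM with siSirt7 and 18.8 to 21.8 FPKM with siScrambled. Fibroblast markers, 7 of 7 measured and 4 tested, summed to 83.3 to 85.3 and 75.5 to 91.2 FPKM, with Dpt and Pdgfra lower. The other tested fibroblast markers, Ly6a and Dpep1, had higher means with siSirt7 (log2 fold changes 0.34 and 0.16), neither of them called. The groups did not overlap for Ly6a and overlapped for Dpep1. Mesothelial and epithelial markers, 6 of 7 measured, summed to 63.5 to 71.4 and 67.5 to 79.6 FPKM, with Upk3b lower. Of the others tested, Krt18 had a higher mean and Msln and Wt1 lower means with siSirt7, none of them called. The part of any of these markers in the results below was not tested.

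Of the 10 genes, Tnrc6b, Ago2 and Ago3 were lower with siSirt7, 0 were higher and 7 were not called. Over all genes tested, 25.2% were called, 12.7% higher and 12.5% lower. The median log2 fold change of the 10 was -0.14, against -0.005 over all tested genes, and 7 of the 10 had a lower mean and 3 a higher mean with siSirt7. The siSirt7 and siScrambled libraries did not overlap for 4 of the 10, Tnrc6b, Ago2, Ago3 and Drosha, while 43.9% of all tested genes had groups that did not overlap. With transcripts tested singly, 15 of the 17 reached a mean of 1 FPKM and 1, Tnrc6b-201, was called (adjusted p = 0.00687), against 8.99% of all 17414 transcripts tested.

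**Figure D1:**
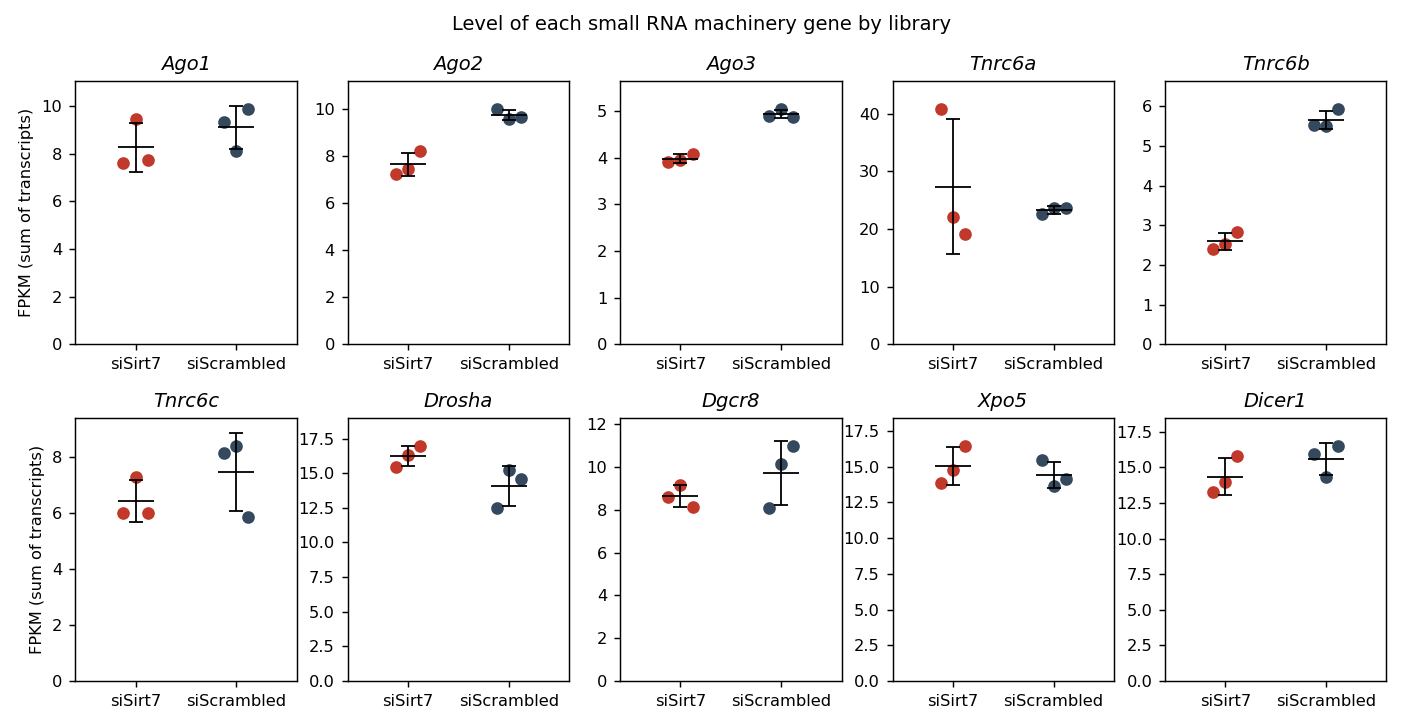
FPKM of each gene (vertical axes from 0, one scale per panel) in the 3 siSirt7 libraries, on the left of each panel, and the 3 siScrambled libraries, on the right. Points are libraries and bars are the mean ± SD. Tnrc6b lies between 2.41 and 2.83 FPKM with siSirt7 and between 5.51 and 5.93 FPKM with siScrambled, and 1 siSirt7 library of Tnrc6a stands at 40.8 FPKM.

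Before the values by gene, short stretches of the annotated 3′ UTRs are shown, since 7-base words there were tied to lower fold changes across all genes in an earlier look at these data. Sequences and positions are from GENCODE vM21 (GRCm38), each is 30 bases of the transcript strand, and capitals mark the matched word. On the transcript strand ATATGTA was searched first, then the overlapping word TATGTAA, and a place that holds both reads ATATGTAA. The 2 windows of Tnrc6b (chr15:80932204-80932233 and chr15:80932374-80932403, plus strand) are the only 8-base match among the 9 of the 10 genes with a searched 3′ UTR (all but Xpo5) and a match inside an AT-rich run. The window of Ago2 nearest its stop codon is chr15:73106052-73106081 (minus strand). For Ago3, the window nearest the stop codon (chr4:126344988-126345017, minus strand) and its first match to TATGTAA (chr4:126341039-126341068, minus strand) are shown. Dgcr8 (chr16:18254045-18254074, minus strand) is the gene that holds a word and was not called.
Tnrc6b, 8-base word: agggatttgaaATATGTAAaaataagcatg
Tnrc6b, ATATGTA: tatatatatatATATGTAtgtacatatata
Ago2, ATATGTA: aagagaagaatATATGTAtctggtttgcag
Ago3, ATATGTA: acttcatgtgcATATGTAtctagatctagg
Ago3, TATGTAA: ccaggaatactTATGTAAaggtcaatacag
Dgcr8, ATATGTA: aggtgggtcttATATGTAcagtcatgctgc

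Among the TNRC6 genes, Tnrc6b (ENSMUSG00000047888.10, chromosome 15, 80711313 to 80941085, plus strand, GRCm38) had the largest change of the 10 genes. Its protein is one of the scaffolds that link an Argonaute to the deadenylases. Tnrc6b was at 2.41, 2.53 and 2.83 FPKM in the siSirt7 libraries and at 5.52, 5.51 and 5.93 FPKM in the siScrambled libraries. The libraries of each group lay close together and far from those of the other group. The means were 2.59 ± 0.22 FPKM with siSirt7 and 5.65 ± 0.24 FPKM with siScrambled, 54.2% lower or a 2.18-fold lower level, and the log2 fold change was -0.89 (SE 0.08, 95% interval -1.08 to -0.70, limma adjusted p = 0.000885). By log2 fold change it ranked 116 from the lowest of the 10854 tested genes. The call held in each of the 6 fits that left out 1 library, with log2 fold changes from -0.94 to -0.85. One transcript, Tnrc6b-201, carries the whole value, and in GENCODE vM21 it has 25 exons and 17332 bases, of which 11609 are 3′ UTR.

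Tnrc6a (ENSMUSG00000052707.8, chromosome 7, 123124177 to 123195296, plus strand) encodes a paralogous scaffold and was the most abundant of the 10 genes per length. It was at 40.8, 22.1 and 19.2 FPKM in the siSirt7 libraries and at 22.6, 23.7 and 23.6 FPKM in the siScrambled libraries. The first siSirt7 library stood above the other 5, and the other siSirt7 libraries lay below all 3 siScrambled libraries. The means were 27.4 ± 11.7 FPKM with siSirt7 and 23.3 ± 0.65 FPKM with siScrambled (log2 fold change 0.15, SE 0.26, adjusted p = 0.723). Without siSirt7 replicate 1 the log2 fold change was -0.17, also not called. The excess lay in Tnrc6a-203, a model of 358 bases with an incomplete end, which was at 22.5 FPKM in that library and between 4.23 and 6.41 FPKM in the other 5. The full-length transcript Tnrc6a-201 was at 17.1, 16.8 and 13.0 FPKM with siSirt7 and at 15.4, 17.8 and 16.7 FPKM with siScrambled, and these ranges overlapped (log2 fold change -0.09, adjusted p = 0.706).

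Tnrc6c (ENSMUSG00000025571.13, chromosome 11, 117654813 to 117763439, plus strand), the remaining TNRC6 scaffold gene, was at 6.02, 7.30 and 6.00 FPKM in the siSirt7 libraries and at 8.14, 8.40 and 5.86 FPKM in the siScrambled libraries. The groups overlapped because of siScrambled replicate 3, and the log2 fold change was -0.18 (95% interval -0.53 to 0.17, adjusted p = 0.422). Most of its level came from Tnrc6c-203, a model with an incomplete end, at 5.42 ± 1.16 and 6.51 ± 1.86 FPKM.

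The make-up of the TNRC6 family was compared with each transcript weighted by its length, so that the short Tnrc6a model counts for little. Tnrc6b made up 9.50%, 10.1% and 13.6% of the family's sum in the siSirt7 libraries and 20.0%, 18.3% and 21.4% in the siScrambled libraries. The groups did not overlap. The mean share of Tnrc6a was 67.6% with siSirt7 and 59.6% with siScrambled, and that of Tnrc6c was 21.4% and 20.4%. The family summed to between 20.9 and 25.4 FPKM with siSirt7 and between 27.6 and 30.1 FPKM with siScrambled on this scale. With plain sums the share of Tnrc6b was 7.64% and 15.5%. The family's plain sum overlapped between the groups, at 28.0 to 49.2 FPKM with siSirt7 and 35.4 to 37.6 FPKM with siScrambled. Its means were alike on that scale, at 36.4 FPKM in both groups. These shares follow from the levels above and were not tested separately.

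The Argonaute genes lie at 2 places. Ago3, Ago1 and Ago4 stand in that order on the minus strand of chromosome 4, with 5455 bases between Ago3 and Ago1 and 20957 bases between Ago1 and Ago4, and Ago2 is on chromosome 15. Their coding sequences are alike, and the sources used here do not say how reads that fit several of them were assigned.

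Ago2 (ENSMUSG00000036698.10, chromosome 15, 73095844 to 73184840, minus strand) encodes the Argonaute that can itself cut a fully paired target, the activity on which siRNAs depend. It was at 7.24, 7.45 and 8.20 FPKM in the siSirt7 libraries, against 9.97, 9.56 and 9.66 FPKM in the siScrambled libraries. Every siSirt7 library was below every siScrambled library. The means were 7.63 ± 0.50 and 9.73 ± 0.22 FPKM, 21.6% lower with siSirt7 (log2 fold change -0.32, SE 0.06, 95% interval -0.47 to -0.16, limma adjusted p = 0.0162). The call was lost without siSirt7 replicate 2 (adjusted p = 0.0535), without siScrambled replicate 1 (0.0577) and without siScrambled replicate 3 (0.0503), and held without each of the other 3 libraries. With transcripts tested singly, Ago2-201 had the same fold change but was not called (adjusted p = 0.0542). At its 3′ end Ago2 shares 1711 bases of genomic span with Chrac1 on the plus strand, through the transcript Chrac1-202, which was listed at 0 to 0.985 FPKM. The sources used here do not say whether strand was used in counting.

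Ago3 (ENSMUSG00000028842.15, chromosome 4, 126332732 to 126429556, minus strand) encodes an Argonaute with little or no cutting of most targets. It was at 3.90, 3.94 and 4.09 FPKM in the siSirt7 libraries, against 4.90, 5.04 and 4.87 FPKM in the siScrambled libraries. The groups did not overlap, and the spread within each was small. The means were 3.98 ± 0.10 and 4.94 ± 0.09 FPKM, 19.4% lower with siSirt7 (log2 fold change -0.25, SE 0.06, 95% interval -0.41 to -0.10, limma adjusted p = 0.0319). The call was lost in each of the 6 fits that left out 1 library (adjusted p from 0.0600 to 0.0979), while the log2 fold change stayed between -0.27 and -0.24. It was also lost after quantile normalization (adjusted p = 0.0529) and with transcripts tested singly (adjusted p = 0.127).

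Ago1 (ENSMUSG00000041530.16, chromosome 4, 126435012 to 126468583, minus strand), an Argonaute that acts mainly through TNRC6 recruitment, was at 7.60, 9.47 and 7.74 FPKM in the siSirt7 libraries and at 9.34, 8.10 and 9.87 FPKM in the siScrambled libraries. The groups overlapped (log2 fold change -0.13, 95% interval -0.39 to 0.13, adjusted p = 0.442). Its full-length transcript Ago1-201 alone was at 6.74, 7.26 and 6.66 FPKM, against 7.27, 7.43 and 7.88 FPKM. The highest siSirt7 value was just under the lowest siScrambled value there (log2 fold change -0.11, adjusted p = 0.442). Ago4, the fourth Argonaute of the family and not one of the 10, was at 0.942 ± 0.24 and 1.21 ± 0.07 FPKM (log2 fold change -0.19, adjusted p = 0.309).

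Together the Argonaute genes Ago1 to Ago4 summed to between 19.5 and 22.0 FPKM with siSirt7 and between 23.8 and 25.7 FPKM with siScrambled, with means of 20.8 and 25.0 FPKM. Their relative make-up overlapped between the groups. Ago2 held 36.7% ± 2.72 of the sum with siSirt7 and 39.0% ± 1.26 with siScrambled, Ago1 39.6% ± 3.04 and 36.4% ± 2.25, and Ago3 19.2% ± 1.13 and 19.8% ± 1.16. These are plain sums. With each transcript weighted by its length, Ago2 held 38.6% with siSirt7 and 41.0% with siScrambled, and Ago1 36.5% and 33.2%. On that scale the mean share of Ago2 was above that of Ago1 in both groups. Whether the Argonaute and TNRC6 families differ in this was not tested.

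**Figure D2:**
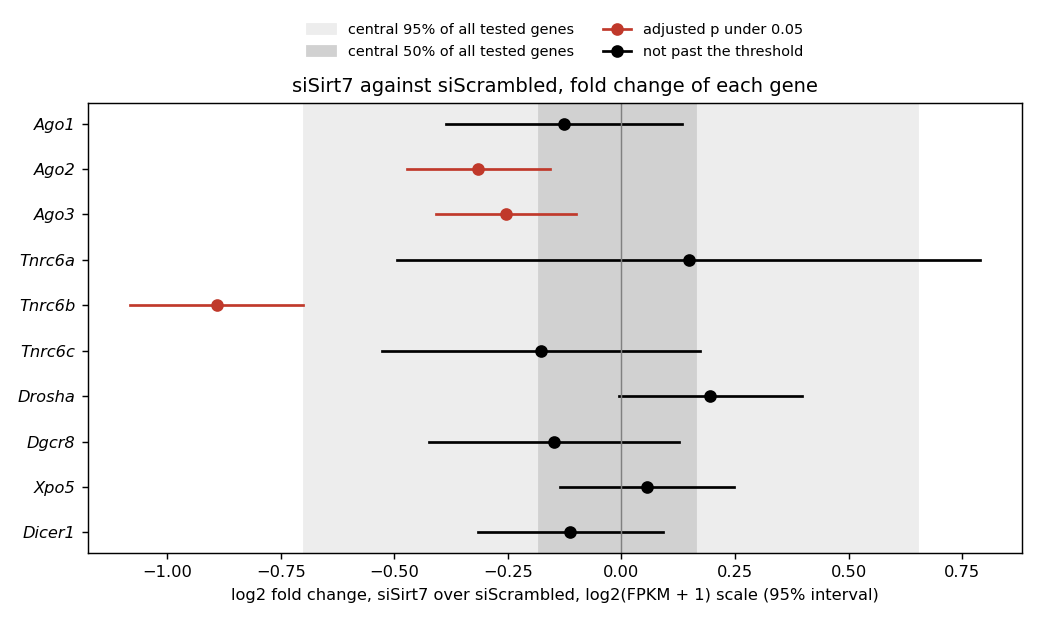
Log2 fold change of each gene, siSirt7 minus siScrambled mean of log2(FPKM + 1) (horizontal axis), with lines for the 95% interval of the fit over all genes and grey bands for the central 50% and 95% of all tested genes. The interval of Tnrc6b runs from -1.08 to -0.70, those of Ago2 and Ago3 lie between -0.47 and -0.10, and the other 7 include 0.

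Of the microprocessor genes, Drosha (ENSMUSG00000022191.16, chromosome 15, 12824815 to 12935291, plus strand), the nuclear RNase that cuts the hairpin free, was at 15.5, 16.3 and 17.0 FPKM in the siSirt7 libraries and at 12.5, 15.2 and 14.6 FPKM in the siScrambled libraries. The groups did not overlap, but the gene was not called (16.3 ± 0.75 and 14.1 ± 1.44 FPKM, log2 fold change 0.20, 95% interval -0.005 to 0.40, adjusted p = 0.141). Its transcript Drosha-207 was at 2.39 FPKM in the first siScrambled library and at 0.233 to 0.819 FPKM in the other 5. Dgcr8 (ENSMUSG00000022718.11, chromosome 16, 18253948 to 18289249, minus strand), the partner that binds the hairpin, was at 8.60, 9.17 and 8.13 FPKM in the siSirt7 libraries and at 8.08, 10.1 and 11.0 FPKM in the siScrambled libraries. Its groups overlapped (log2 fold change -0.15, 95% interval -0.42 to 0.13, adjusted p = 0.393).

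The 2 Dgcr8 transcripts moved apart between libraries. Dgcr8-202 was at 0, 0.267 and 0.331 FPKM with siSirt7 and at 2.38, 0.255 and 4.45 FPKM with siScrambled. Dgcr8-201 was at 8.60, 8.91 and 7.80 FPKM with siSirt7 and at 5.70, 9.89 and 6.54 FPKM with siScrambled. The 2 siScrambled libraries with most Dgcr8-202 were those with least Dgcr8-201, and neither transcript was called (adjusted p = 0.274 and 0.618). On the single transcript Dgcr8-201 the log2 fold change was 0.20, the opposite sign to that of the sum.

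Xpo5 (ENSMUSG00000067150.5, chromosome 17, 46202855 to 46242299, plus strand), which carries cut hairpins out of the nucleus, was at 13.9, 14.8 and 16.5 FPKM in the siSirt7 libraries and at 15.5, 13.7 and 14.1 FPKM in the siScrambled libraries. The groups overlapped (log2 fold change 0.06, 95% interval -0.14 to 0.25, adjusted p = 0.647). Dicer1 (ENSMUSG00000041415.10, chromosome 12, 104687742 to 104751952, minus strand), the cytoplasmic RNase that trims the hairpin to a duplex, was at 13.3, 14.0 and 15.8 FPKM with siSirt7 and at 15.9, 14.3 and 16.5 FPKM with siScrambled. It overlapped too (log2 fold change -0.11, 95% interval -0.32 to 0.09, adjusted p = 0.381). Most of its sum came from the incomplete model Dicer1-203, at 8.47 ± 0.75 and 9.50 ± 1.72 FPKM, and the full-length Dicer1-201 was at 5.87 ± 0.55 and 6.08 ± 0.62 FPKM. For these 4 genes of processing and export the data allow changes up to the ends of their intervals, and the log2 fold change of Tnrc6b, -0.89, lies outside each interval.

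**Figure D3:**
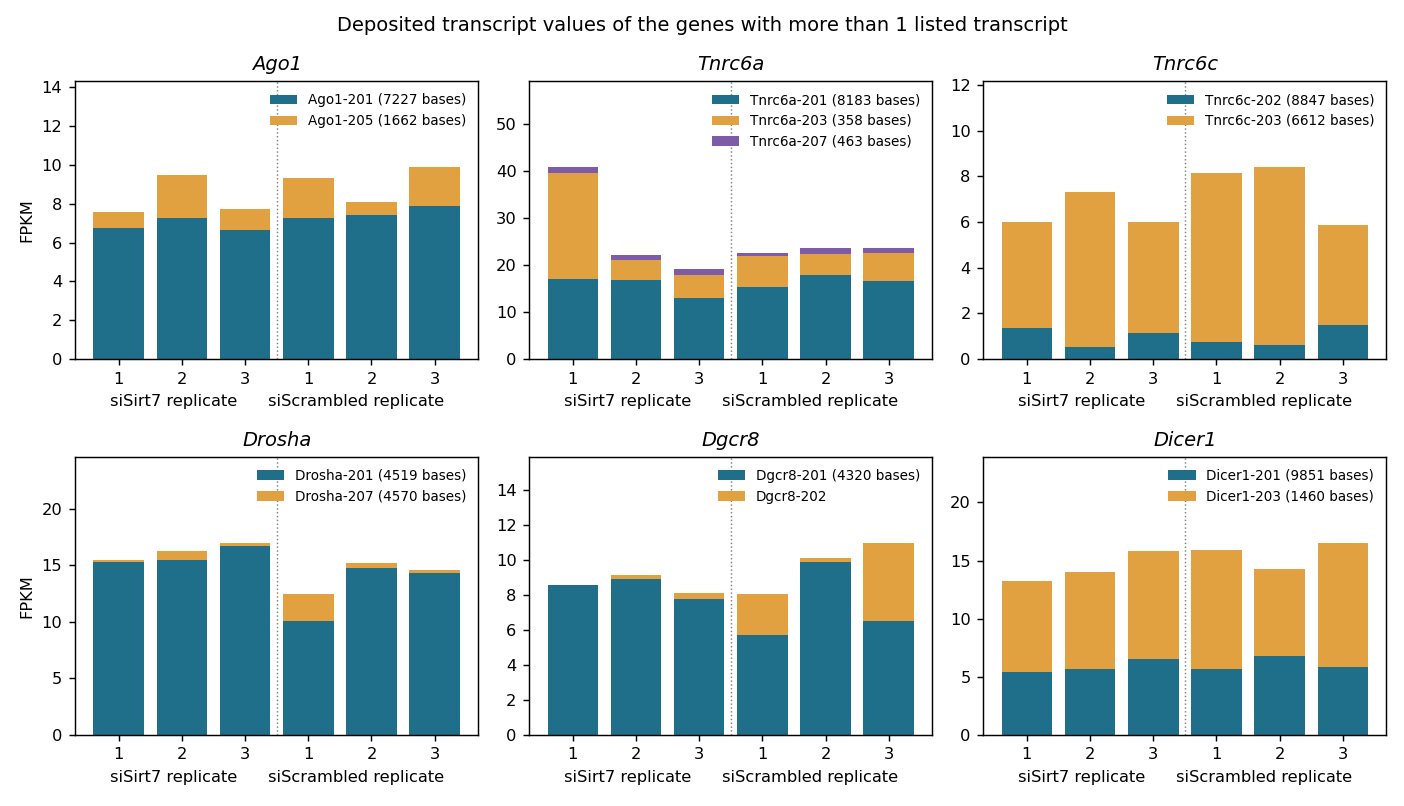
FPKM of the listed transcripts of the genes that have more than 1 (vertical axes from 0), stacked to the gene's sum in 1 bar per library, siSirt7 libraries left of the dotted line and siScrambled libraries right of it. Colours are transcripts, with their annotated lengths. Tnrc6a-203 is at 22.5 FPKM in 1 siSirt7 library and at most 6.41 FPKM in the other 5, and Dgcr8-202 is high in 2 of 3 siScrambled libraries.

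In order of mean level with siScrambled, on the FPKM scale, the genes were Tnrc6a (23.3), Dicer1 (15.6), Xpo5 (14.4), Drosha (14.1), Dgcr8 (9.74), Ago2 (9.73), Ago1 (9.10), Tnrc6c (7.46), Tnrc6b (5.65) and Ago3 (4.94). The siScrambled libraries of Dicer1, Xpo5 and Drosha overlapped, as did those of Dgcr8, Ago2 and Ago1, and Tnrc6c overlapped Ago1 above it and Tnrc6b below it. This order rests on plain sums that include short incomplete models, and the full-length Dicer1-201 alone, at 6.08 FPKM, would stand below Dgcr8 and Ago2. With siSirt7 the lower end of the order was Tnrc6c (6.44), Ago3 (3.98) and Tnrc6b (2.59), so that Ago3 and Tnrc6b stood in the opposite order. Every siSirt7 library had more Ago3 than Tnrc6b, and every siScrambled library more Tnrc6b than Ago3. Against all tested genes, the mean level over the 6 libraries ran from the 25.4 percentile for Tnrc6b to the 76.3 percentile for Tnrc6a.

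The 3 genes called lower were also those with the longest annotated 3′ UTRs. Ago2-201, Ago3-201 and Tnrc6b-201 have 11064, 12742 and 11609 bases of 3′ UTR, and among the other genes with a matched model the longest was 4491 bases, in Ago1-201. Xpo5 had no matched model. The median over 9726 tested genes with a matched 3′ UTR of at least 50 bases was 1017 bases. In 23 of these the 3′ UTR was at least 10000 bases long, and 9 of the 23 were lower and 0 higher, while 12.7% of all 9726 were lower. The bound of 10000 bases was chosen after the values of Ago2, Ago3 and Tnrc6b were seen. These genes are among the 9, so the count lends no support of its own.

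ATATGTA or TATGTAA was present in Tnrc6b, Ago2, Ago3 and Dgcr8, of which 3 were lower, and in none of the 3′ UTRs of Ago1, Dicer1, Drosha, Tnrc6a and Tnrc6c, of which 0 were lower. Ago2 held ATATGTA at bases 838 and 7843 of its 3′ UTR. Ago3 held it at bases 468, 2670, 6439 and 7407 and TATGTAA at bases 4417 and 6292. Tnrc6b held ATATGTAA at base 2739 and ATATGTA at base 2909, and Dgcr8 held ATATGTA at base 1459 of 1574. The words were chosen on these fold changes, so the counts are a description and lend no support of their own.

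Over all 9726 genes, 22.9% held either word. Among those 2231 genes 25.0% were lower and 6.81% higher, against 9.01% lower and 14.5% higher among the 7495 genes with neither. The words were chosen on these same fold changes. The contrasts given here, also those by 3′ UTR length, are therefore a description and lend no support of their own. Of 547 genes with ATATGTAA, as in Tnrc6b, 38.9% were lower. Longer 3′ UTRs held a word more often. Among the 23 genes of at least 10000 bases, 8 of 18 with a word and 1 of 5 without one were lower. Ago2, Ago3 and Tnrc6b are among the 8. Between 5000 and 10000 bases 26.1% of 222 genes with a word and 10.1% of 99 genes without one were lower. The word CGGAGAA, earlier tied to higher fold changes, was found in Ago1 alone, at base 2145, while 31.9% of the 213 genes that hold it were higher. None of 1679 mature mouse microRNAs in the RefSeq table, which is not complete, had bases 2 to 8 complementary to ATATGTA or TATGTAA. Other kinds of match and the transfected siRNAs were not searched, and the cause of the link between words and fold changes was not tested. A match to a word is not a binding site.

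**Figure D4:**
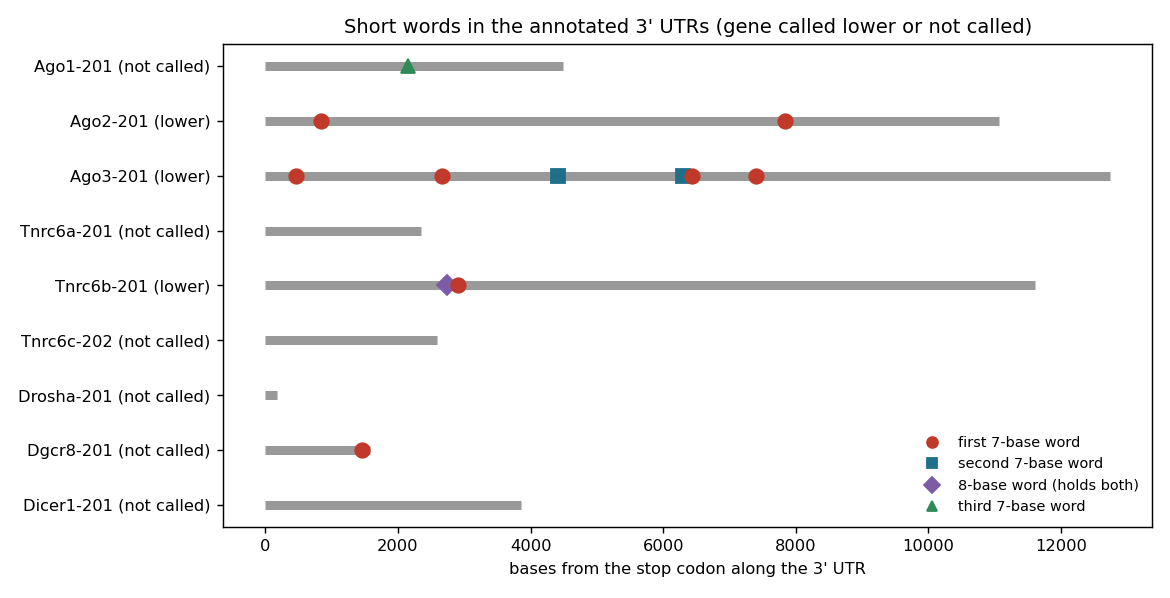
Annotated 3′ UTRs of the 9 genes with a matched model, drawn to scale from the stop codon (horizontal axis, bases), with the place of each word. In the legend the first 7-base word is ATATGTA, the second is TATGTAA, the third is CGGAGAA, and the 8-base word is ATATGTAA. The 3 genes called lower have bars of at least 11064 bases, and the other bars end by 4491 bases.

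Genes that act with the 10 were read from 5 lists. Of 95 genes listed 90 were tested, 9 higher, 7 lower and 74 not called (median log2 fold change 0.02). The share called, 17.8%, was below the 25.2% of all tested genes. Among 17 microprocessor cofactors 0 were higher and 1 was lower (median 0.006). This was Ddx5, an RNA helicase of the microprocessor, at 156.7 ± 2.98 and 169.4 ± 2.28 FPKM (log2 fold change -0.11, adjusted p = 0.0341). Among 12 tested genes of export, dicing and precursor turnover 0 were higher and 1 was lower (median 0.03). This was Zcchc11, a uridylyltransferase that tails precursor hairpins, at 6.28 ± 0.48 and 8.64 ± 0.89 FPKM (log2 fold change -0.40, adjusted p = 0.0236). Ddx5 was called in 1 and Zcchc11 in 2 of the 6 fits that left out 1 library, with adjusted p up to 0.113 and 0.0668.

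Among 22 Argonaute loading and partner genes 5 were higher and 1 was lower (median 0.06). The share called, 27.3%, was close to the 25.2% of all tested genes. Argonautes are loaded with help of the Hsp90 chaperone cycle, and this list was drawn up to hold its cochaperones, beside other partners. Hsp90aa1 and Hsp90ab1 themselves were not called (log2 fold changes 0.08 and 0.05, limma adjusted p = 0.104 and 0.553). Nor were Stip1 and Fkbp4 (log2 fold changes 0.03 and -0.05, limma adjusted p = 0.541 and 0.701). Ptges3, the p23 cochaperone, was at 124.5 ± 3.00 FPKM with siSirt7 and 103.3 ± 3.02 FPKM with siScrambled (log2 fold change 0.27, adjusted p = 0.00355). The log2 fold changes of Ahsa1, which stimulates the Hsp90 ATPase, and of the cochaperone Dnaja2 were 0.27 (adjusted p = 0.0345) and 0.21 (adjusted p = 0.0093). The kinase cochaperone Cdc37 and the nuclease Snd1, chosen after their values were seen, were also higher. Their log2 fold changes were 0.18 (limma adjusted p = 0.0105) and 0.19 (limma adjusted p = 0.0499), the latter just under the threshold. Fkbp5, an Hsp90-bound immunophilin, was lower, at 5.92 ± 0.61 and 7.90 ± 0.44 FPKM (log2 fold change -0.37, adjusted p = 0.0257). Leaving out 1 library in turn, Ptges3 and Dnaja2 kept their calls in all 6 fits, and Ahsa1 and Fkbp5 in 2 each (adjusted p up to 0.0981 and 0.0821).

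Among 18 tested deadenylation genes 2 were higher and 2 lower (median -0.03). That is 22.2% called, below the 25.2% of all tested genes. Cnot6, a catalytic subunit of the deadenylase complex that TNRC6 proteins recruit, had a larger change than any of the 10 genes. It was at 9.65, 9.54 and 10.7 FPKM in the siSirt7 libraries, against 25.1, 26.9 and 24.3 FPKM in the siScrambled libraries. The groups lay far apart, with a 2.55-fold lower mean with siSirt7 (log2 fold change -1.27, limma adjusted p = 0.000182). Its transcript Cnot6-203, with a 3′ UTR of 3690 bases, held ATATGTA at 2 places and TATGTAA at 1 and was at 6.74 and 16.2 FPKM. Cnot6-201, whose 3′ UTR of 480 bases held neither word, was at 3.21 and 9.27 FPKM. Both transcripts were thus lower in mean. Of the other named genes of the lists with a matched 3′ UTR, Ddx5 and Dcp2 (lower) held a word. So did Btg1 and minor transcripts of Eif4e2 (both genes higher). Neither word was found in Tob1 and Lsm4 (lower) or in Ahsa1, Dnaja2, Ptges3 and Lsm14b (higher).

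The other called deadenylation genes encode antiproliferative proteins that bind the deadenylase. Btg1 and Tob2 were higher (log2 fold changes 0.44 and 0.43, adjusted p = 0.00361 and 0.00801), in all 6 fits that left out 1 library. Tob1 was lower (log2 fold change -0.19, adjusted p = 0.0385), in 1 of those 6 fits, with adjusted p up to 0.114. The Tob paralogs thus had opposite signs. Of 21 genes of decapping, decay and translational repression 2 were higher and 2 lower (median 0.05). That is 19.0% called, below the 25.2% of all tested genes. The decapping enzyme Dcp2 was at 5.15 ± 0.12 and 7.55 ± 1.32 FPKM (log2 fold change -0.46, adjusted p = 0.0315), and the log2 fold change of Lsm4, of the ring that binds shortened tails, was -0.30 (adjusted p = 0.0281). The cap-binding repressor Eif4e2 was at 116.1 ± 2.24 and 99.4 ± 3.16 FPKM (log2 fold change 0.22, adjusted p = 0.0067), and that of Lsm14b, a P-body protein, was 0.24 (adjusted p = 0.0272). Eif4e2 kept its call in all 6 fits, Dcp2 in 2, Lsm4 in 1 and Lsm14b in 0, with adjusted p up to 0.0891, 0.0867 and 0.0858 for the last 3.

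Some calls of the lists depended on the setting. With the most abundant transcript of each gene tested alone, Zcchc11 (adjusted p = 0.746), Ddx5 (0.0699), Ahsa1 (0.0749), Fkbp5 (0.0803), Tob1 (0.0853) and Dcp2 (0.0563) were not called, and Lsm14b and Lsm4 had the opposite sign (log2 fold changes -0.01 and 0.10). Without limma's trend and robust options Ddx5 (adjusted p = 0.125), Ahsa1 (0.0545) and Tob1 (0.0521) were not called.

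**Figure D5:**
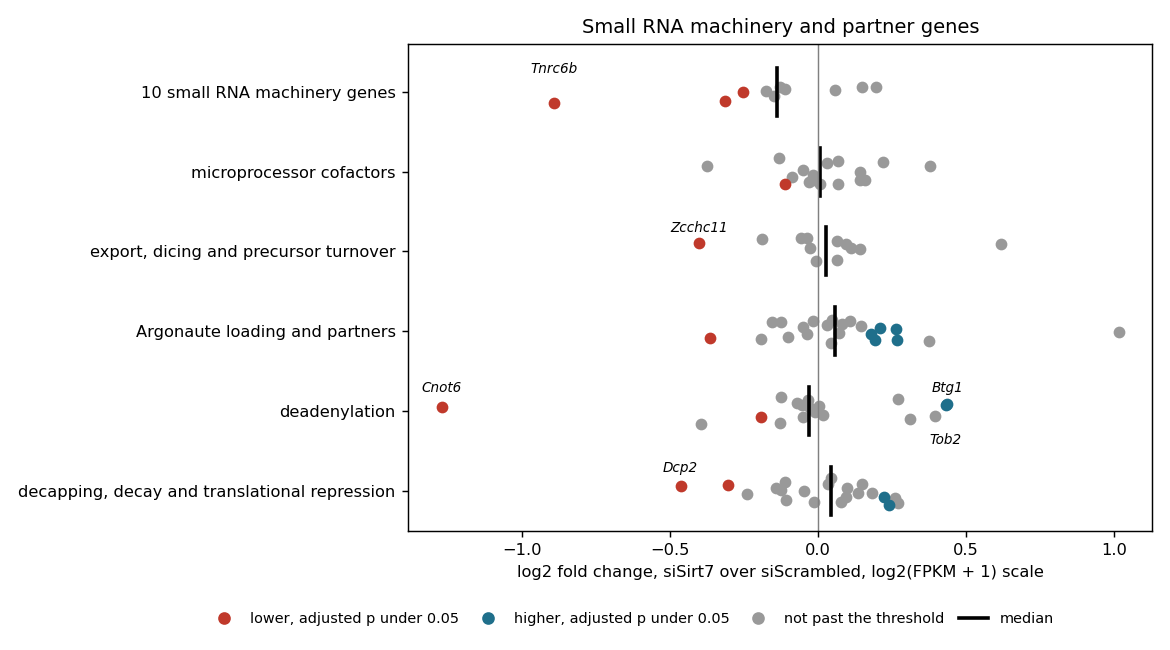
Log2 fold change, siSirt7 minus siScrambled mean of log2(FPKM + 1) (horizontal axis), of the 10 genes and of 5 lists of genes that act with them. Each point is a gene, coloured by its call, and black bars are list medians, from -0.14 for the 10 genes to 0.06 for Argonaute loading and partners. Cnot6 (-1.27) and Tnrc6b (-0.89) lie farthest to the left.

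Genes whose log2(FPKM + 1) over the 6 libraries was most alike were sought among the 7542 genes whose mean reached 5 FPKM. For the genes called lower these were Ckb for Tnrc6b, Frmd4a for Ago2 and Dusp7 for Ago3, each with a Pearson r of 0.999. Ckb was at 37.7 and 60.6 FPKM, Frmd4a at 33.3 and 42.4 FPKM and Dusp7 at 4.70 and 6.81 FPKM, and all 3 had lower means with siSirt7. The 6 libraries are 2 groups, so a group difference shared by 2 genes alone gives a high r, and r was over 0.95 for 533 genes with Tnrc6b, 346 with Ago2 and 518 with Ago3. For the genes not called the nearest were Fut8 for Ago1 (r = 0.984), Slain2 for Dicer1 (0.981), Rab28 for Drosha (0.990), Sppl2a for Dgcr8 (0.996), Tex10 for Xpo5 (0.987), Ube2v1 for Tnrc6a (0.990) and Ankrd13a for Tnrc6c (0.977), with 3 to 25 genes over 0.95.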

How the data were processed

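The authors sequenced mRNA of 6 libraries, aligned the reads with HISAT2 to GRCm38 (mm10), per the submitters' processing notes, and deposited FPKM per transcript, per the file headers. The sources used here do not give the version of HISAT2, the program behind the FPKM values, its annotation or how shared reads were assigned. In 1 group or both, the mean of each transcript analysed was over 0.5 FPKM. Whole reads could not be recovered from the values: at the best of many trial steps, 28.3% to 32.3% of low values lay within 0.1 of a whole number of steps, so depth and counting error are unknown.

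Transcript FPKM were summed per gene, and genes whose mean reached 1 FPKM were tested on log2(FPKM + 1) with limma 3.58.1 (trend and robust) in R 4.3.3, after the test was checked on simulated data. Transcripts were matched to GENCODE vM21 by name, strand and 3′ end. Words were searched in the 3′ UTRs of all matched transcripts of the 10 genes and of named genes of the lists. Over all genes they were searched in the most abundant transcript. Tables and plots used Python 3.11.15, pandas 2.3.3, numpy 2.4.6 and matplotlib 3.10.9. Named are the 10 genes, up to 3 called members with the largest rise and 3 with the largest fall of each list, the gene most alike to each of the 10, Sirt7 and the cell type markers. Ago4, Chrac1, Cdc37, Snd1, Hsp90aa1, Hsp90ab1, Stip1, Fkbp4 and the other genes with long 3′ UTRs fall outside this rule. They were added once their values were known. The 10 genes, the lists and the words were chosen with earlier results of these data known. Replicate numbers were not used as pairs in the main fit.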

Additional observations from a re-analysis of the deposited data

How the results depend on the processing

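Of 16 settings, 6 left out 1 library each, and the length-weighted transcript sums were chosen after seeing the data. Tnrc6b stayed lower under all that tested it. With the most abundant transcript alone 1388 genes were called (714 higher, 674 lower), with 1 of the 10 genes, 0 microprocessor cofactors, 2 Argonaute loading genes and 1 decapping gene. There Ago2 (-0.32, adjusted p = 0.0542) and Ago3 (-0.25, 0.127) were not called, and signs changed for Dgcr8 (0.20), Tnrc6a (-0.095), Lsm14b (-0.011) and Lsm4 (0.10). Length-weighted sums also changed those of Dgcr8 (0.20) and Tnrc6a (-0.076). There 2 microprocessor and 0 export genes were called, and 2671 of all 10110 genes tested. A mean of at least 5 FPKM leaves out Tnrc6b and Ago3. Then 1 of the 8 remaining genes, 2 microprocessor cofactors and 2287 of all 7542 genes tested were called. Quantile normalization gave Ago3 -0.22 (adjusted p = 0.0529). Without the trend and robust options 0 microprocessor cofactors and 2599 of all 10854 genes were called.

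Over all tested genes, samples of the same number did not deviate together (correlations 0.007, 0.03 and -0.01). This cannot show whether they were paired in the experiment. With the replicate number as a block 1 of the 10 genes, 0 microprocessor, 0 export and 2 decapping genes were called. Over all genes 1927 of 10854 were called in that fit. It put Ago2 at -0.32 (limma adjusted p = 0.0553) and Ago3 at -0.25 (0.0933).

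Leaving out 1 library, counts of calls ran from 1853 to 2222 for all genes, 1 to 2 for the 10 genes, 0 to 2 for microprocessor cofactors, 0 to 1 for export, 3 to 5 for Argonaute loading, 3 to 5 for deadenylation and 1 to 3 for decapping. Log2 fold changes ran from -0.36 to -0.28 for Ago2, -0.27 to -0.24 for Ago3, -0.17 to 0.36 for Tnrc6a and -0.0060 to 0.11 for Xpo5. Other genes not called ran from -0.32 to -0.09 for Tnrc6c, -0.26 to -0.06 for Dgcr8, -0.22 to -0.07 for Ago1, -0.18 to -0.06 for Dicer1 and 0.12 to 0.25 for Drosha. The cause of these changes was not tested. Unknown depth leaves the counting error of every value unknown.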

Other observations

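The tested genes with an annotated 3′ UTR of at least 10000 bases, chosen after the values of Ago2, Ago3 and Tnrc6b were seen, were 23 in number, and 9 were lower with siSirt7 and 0 higher, against 12.7% lower and 12.7% higher over all 9726 genes with a matched 3′ UTR. Of the 9, 3 are the genes that prompted the choice. Besides the small RNA genes, those lower were the cyclin-dependent kinase gene Cdk6 (log2 fold change -0.48), the diacylglycerol kinase gene Dgkh (-0.45), the chromatin remodelling subunit gene Ino80d (-0.58), the transcription factor genes Pou2f1 (-0.37) and Zfp704 (-0.50), and Tmem245 (-0.33). Of these 6, Cdk6 held neither ATATGTA nor TATGTAA in its 3′ UTR. The longest, 23858 bases, belonged to Zbtb20, which was not called (-0.50), and the highest log2 fold change of the 23 was that of Zbtb37 (0.37), also not called.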
